A study of Mus musculus with 6 samples.

Results

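The clustered histone genes of the mouse were the 67 protein-coding genes, of 21938 on the assembled chromosomes, whose GENCODE M21 name begins with Hist1, Hist2, Hist3 or Hist4. The rule uses the name and no measured value. The genes were set against a single list of 11106 regions (peaks) enriched for H3K56ac, that is histone H3 acetylated at lysine 56. H3K56ac had been profiled by ChIP-seq in V6.5 mouse embryonic stem cells (mESCs), a single line grown on feeder cells with LIF and infected with lentivirus expressing a scramble shRNA (Scramble) or a shRNA against Sirt6 (Sirt6 KD), an enzyme that removes acetyl groups from histone H3. There were 2 H3K56ac libraries and 1 input library for each shRNA. The peaks of the libraries had been merged into a single set whose score is 0 throughout, so each result below describes mESCs of the study as a whole: Scramble and Sirt6 KD cannot be told apart in it, and no value has a replicate or a depth of its own. A 95% Wilson interval given with a share covers counting error over genes only, and genes that share a peak are not independent.

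Replication-dependent histone genes encode the bulk of H1, H2A, H2B, H3 and H4 needed to package newly made DNA, and their mRNAs accumulate in S phase. Most are short and lack introns, and their mRNAs end in a stem-loop bound by the protein SLBP in place of a poly(A) tail. They lie in clusters, often as divergent H2A and H2B pairs that share a short promoter, and the factor NPAT gathers at the active clusters in nuclear bodies. Part of the H3 that carries K56ac is itself a product of these genes.

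A peak lay within 1 kb of a transcription start site (TSS) of 45 of the 67 genes, or 67.2% (55.3 to 77.2%). Of all protein-coding genes 35.7% had one, of the 10078 genes with a CpG-rich promoter (a ratio of observed to expected CpG above 0.6) 60.4%, and of the 1318 genes with a single exon 13.4%. The clustered histone genes were CpG-rich in 64 of 67 cases and had a single exon in 62, so their share was above that of all genes and of single-exon genes and its interval held the share of CpG-rich genes. The 8 embryonic stem cell genes listed as markers, Pou5f1, Nanog, Sox2, Klf4, Zfp42, Esrrb, Tfcp2l1 and Sall4, had a peak in 8 of 8 cases, and the 8 fibroblast genes listed for the feeder cells, such as Col1a1 and Thy1, in 0 of 8.

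Of the 54 Hist1 genes on chromosome 13, 39 had a peak (72.2%, 59.1 to 82.4%), and of the 10 Hist2 genes on chromosome 3, 4 had one (40.0%, 16.8 to 68.7%), with overlapping intervals. Among genes whose sequence within 1 kb was at least 90% unique in the genome, in words of 75 bases, the order turned, with 11 of 18 Hist1 genes (61.1%) and 3 of 4 Hist2 genes (75%). Both Hist3 genes on chromosome 11 had a peak, while Hist4h4, the only Hist4 gene of the list, on chromosome 6, had none within 1 kb. Hist1 fell into 4 groups where neighbouring members more than 100 kb apart were separated. The first, of 122 kb and 18 genes, had 10 with a peak, the second, of 8.51 kb, had 5 of 5, and the third, of 233 kb, had 24 of 29. The fourth held only Hist1h2ba and Hist1h2aa, both known as testis-specific, and had no peak: the nearest lay 169120 bp from Hist1h2ba. Peaks covered 8.84%, 36.3% and 12.1% of the first 3 groups, and 6.96% of the Hist2 cluster.

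**Figure D1:**
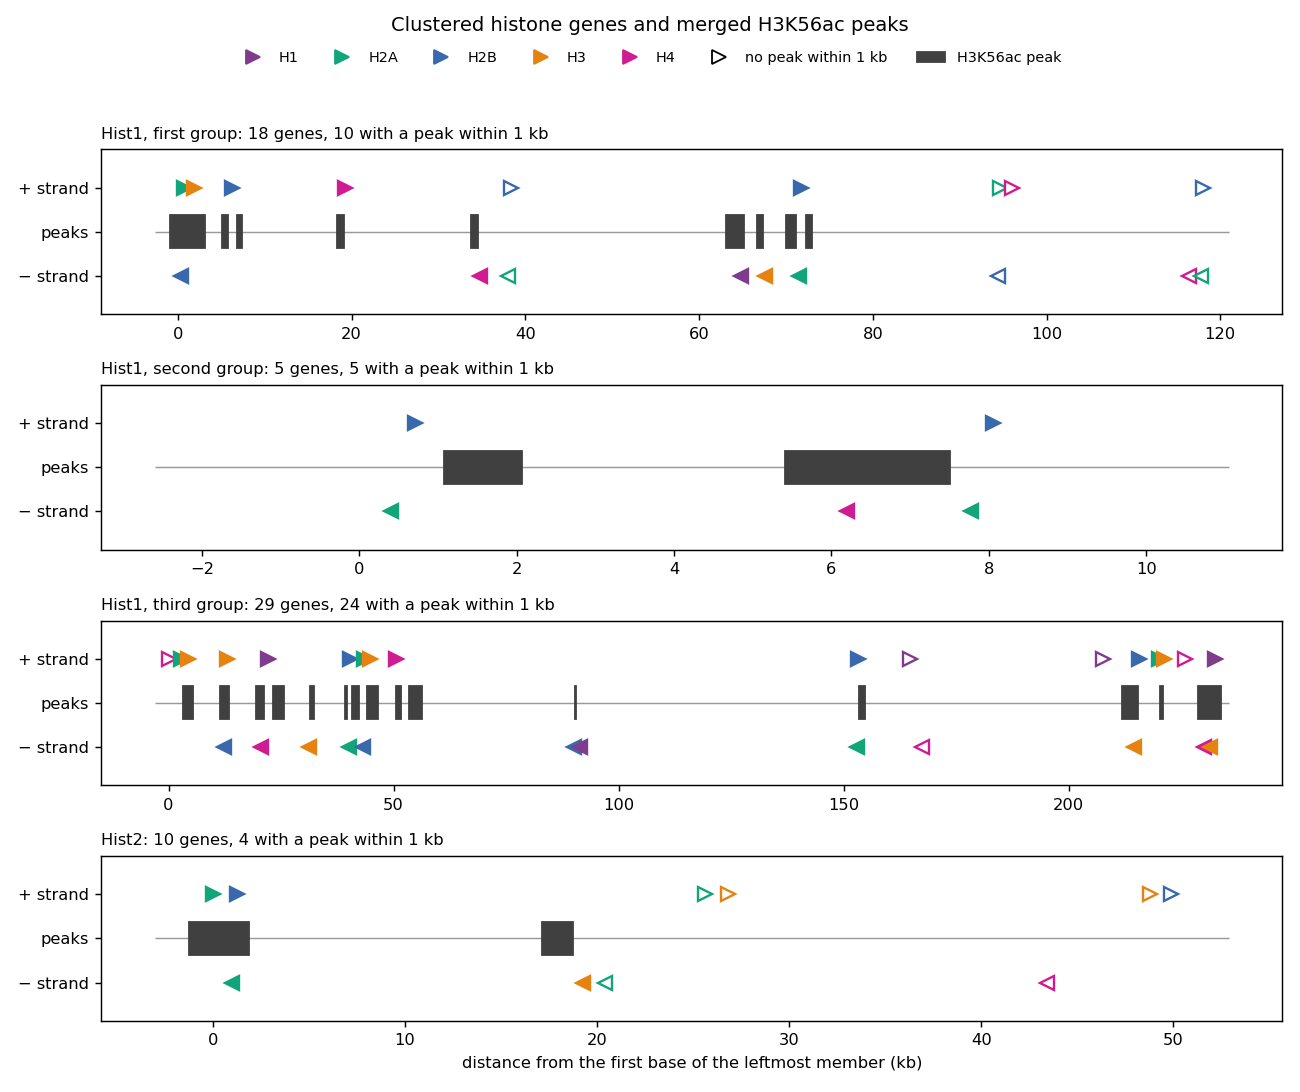
Positions of the 5′ ends of the clustered histone genes (triangles, coloured by histone type and pointing in the direction of transcription, open where no peak lies within 1 kb) and of H3K56ac peaks (grey blocks), in kb from the first base of the leftmost member. The right end of the first Hist1 group holds 6 open triangles with no peak, while 24 of 29 triangles of the third group are filled.

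By type, the share with a peak was 83.3% for H3 (10 of 12, 55.2 to 95.3%), 72.2% for H2B (13 of 18, 49.1 to 87.5%), 66.7% for H2A (12 of 18, 43.7 to 83.7%), 66.7% for the linker histone H1 (4 of 6, 30.0 to 90.3%) and 46.2% for H4 (6 of 13, 23.2 to 70.9%). The intervals of the 5 types overlapped. Counted by the midpoint of the peak, the share was 16.7% for H1 and 38.9% for H2A. Within Hist1 all 9 H3 genes had a peak (70.1 to 100%), and 6 of the 11 H4 genes (28 to 78.7%). The H3 genes without one were Hist2h3c1 and Hist2h3b, so that of the 3 Hist2 H3 genes only Hist2h3c2 had a peak.

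**Figure D2:**
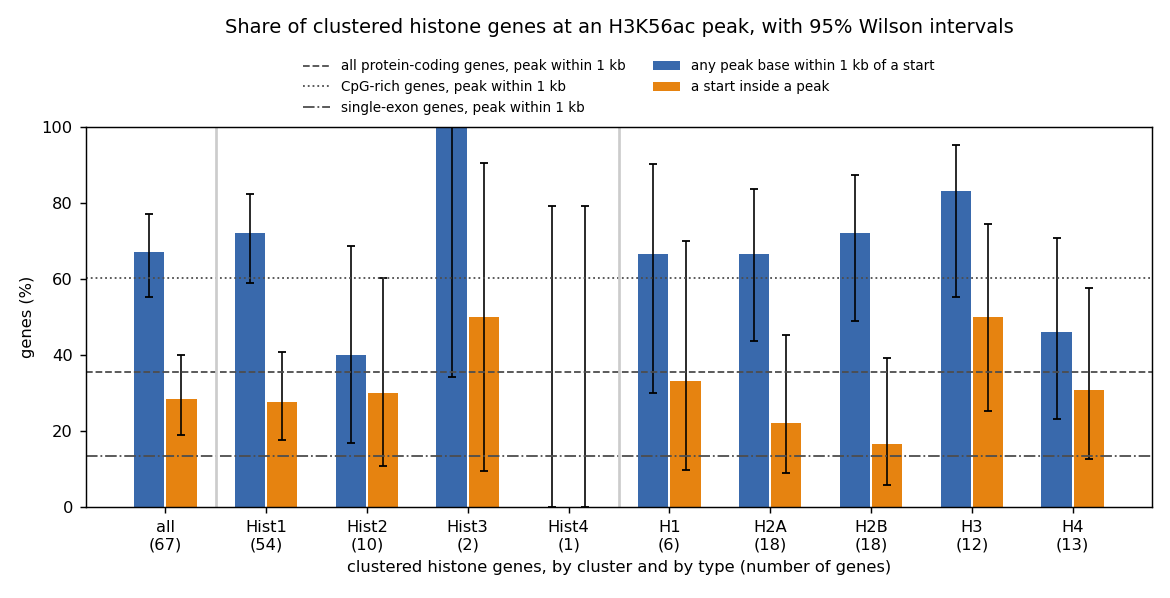
Share of clustered histone genes (y axis, %) with any peak base within 1 kb of a start (blue) and with a start inside a peak (orange), for all 67, by cluster and by histone type, with 95% Wilson intervals; horizontal lines give the share with a peak within 1 kb among all, CpG-rich and single-exon protein-coding genes. The orange bars lie below the blue in every class but Hist4, where both are 0, and the intervals of the types overlap.

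A start lay inside a peak in 19 of the 45 genes with a peak, or 42.2% (29.0 to 56.7%), and beside the peak in the other 26. The larger class turned under other settings: the start was inside in 19 of 35 (54.3%) with peaks at least as wide as the median of all peaks, and in 10 of 16 (62.5%) with genes at least 90% unique. The setting by width could only raise the share, since every peak that held a member start was wider than that median of 914 bp. Among all 7836 protein-coding genes with a peak the share was 70.0%, among the 696 with a single TSS 57.3% (53.6 to 61.0%), and among the 177 with a single exon 55.9% (48.6 to 63.0%). The interval of the histone genes held the value for single-exon genes, and lay below those for genes with a single TSS and for all genes. All of these sets include the clustered histone genes. The single-exon value is therefore in part that of the histone genes themselves, and no agreement with other single-exon genes can be read from it. In the 50 bp bin that begins at the 5′ end, 60.7% of the single-exon genes outside the clustered ones had a peak. For the histone genes the value was 42.2%, in each case among genes with a peak within 1 kb. Of the 26, 11 had the peak only after the start, in the direction of transcription, 8 only before it, and 7 on either side with the start in the gap. For H2A and H2B genes a start was inside a peak in 7 of 25 (28%, 14.3 to 47.6%), and for H1, H3 and H4 genes in 12 of 20 (60.0%, 38.7 to 78.1%). The intervals overlapped, this grouping of types was not planned, and divergent H2A and H2B neighbours can be counted at the same peak.

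**Figure D3:**
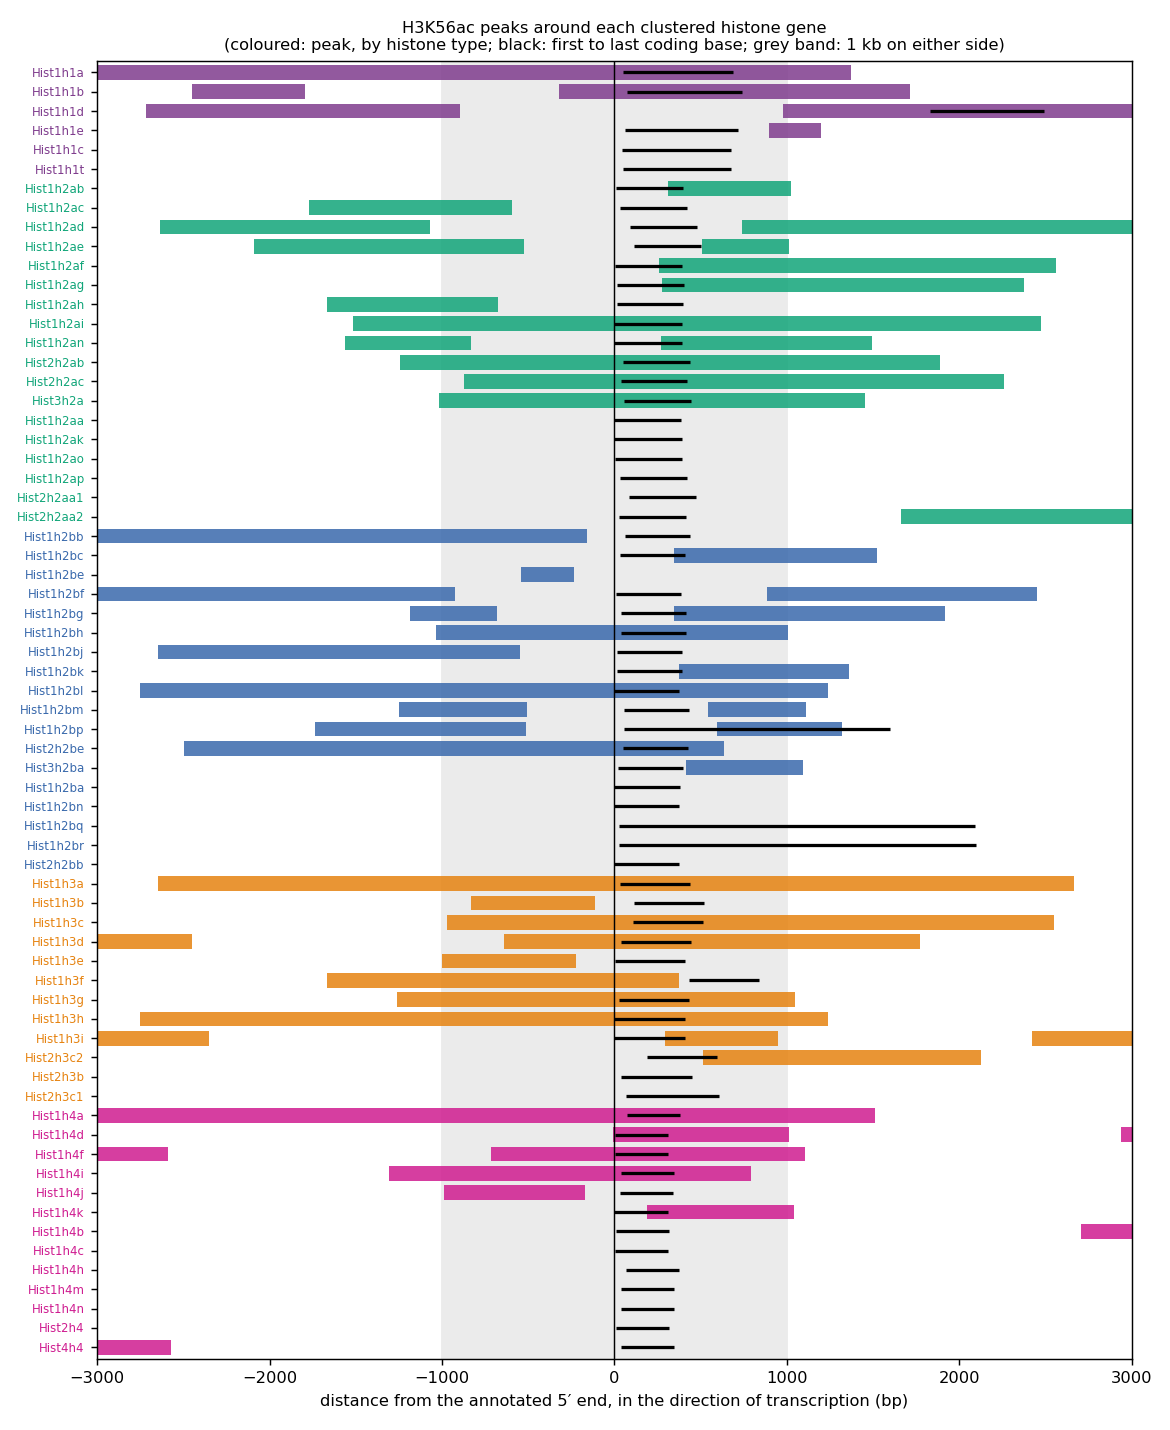
H3K56ac peaks within 3 kb of the annotated 5′ end of each of the 67 genes (1 row per gene, coloured by type; genes with a peak within 1 kb first within each type). Bars that reach the edge go on beyond it, and black lines run from the first to the last coding base, introns included. Many H2A and H2B rows have bars that begin or end beside the line at 0.

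Averaged over the 45 genes in bins of 50 bp, the share covered by a peak was 57.8% at 1000 bp before the start, 40.0% in the 100 bp before it, 42.2% just after it, and 73.3% at 900 bp after it, its highest value. For all genes with a peak it was 26.3%, 51.7%, 56.5% and 53.9% in the bins that begin at 1000 bp before, 100 bp before, 0 and 900 bp after, with its highest value, 69.5%, at 450 bp. The histone genes thus had a low point at the start, with more cover on either side, while genes in general had more cover at the start than before it. A peak shared by neighbouring histone genes counts for each of them, and 35 members shared one. Gene spacing and peak position cannot be told apart in this contrast.

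The sequence of histone genes is repeated in the genome, and the study kept only reads with a single place of alignment, so the uniqueness of the sequence was measured at the same positions. Of the 75-base words (the sources give reads of 75 bases or slightly more) in each bin, the share found nowhere else in the assembly was 88.9% just after the start, fell to 32.1% in the bin that begins 200 bp after it, inside the coding sequence, and was back at 85% by 450 bp. Allowing 2 mismatches in a copy, the lowest value was 18.9%, in the same bin. A second, shallower low of 63.6% lay 500 bp before the start, where the coding sequence of a divergent neighbour can lie. Within 1 kb of the 5′ end, the genes with a start inside a peak had a median of 90.8% unique words (quartiles 84.0 to 95.4%, n = 19) and those with a peak beside the start 74.6% (72.8 to 88.4%, n = 26). The part of sequence uniqueness in the position of the peaks was not tested.

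**Figure D4:**
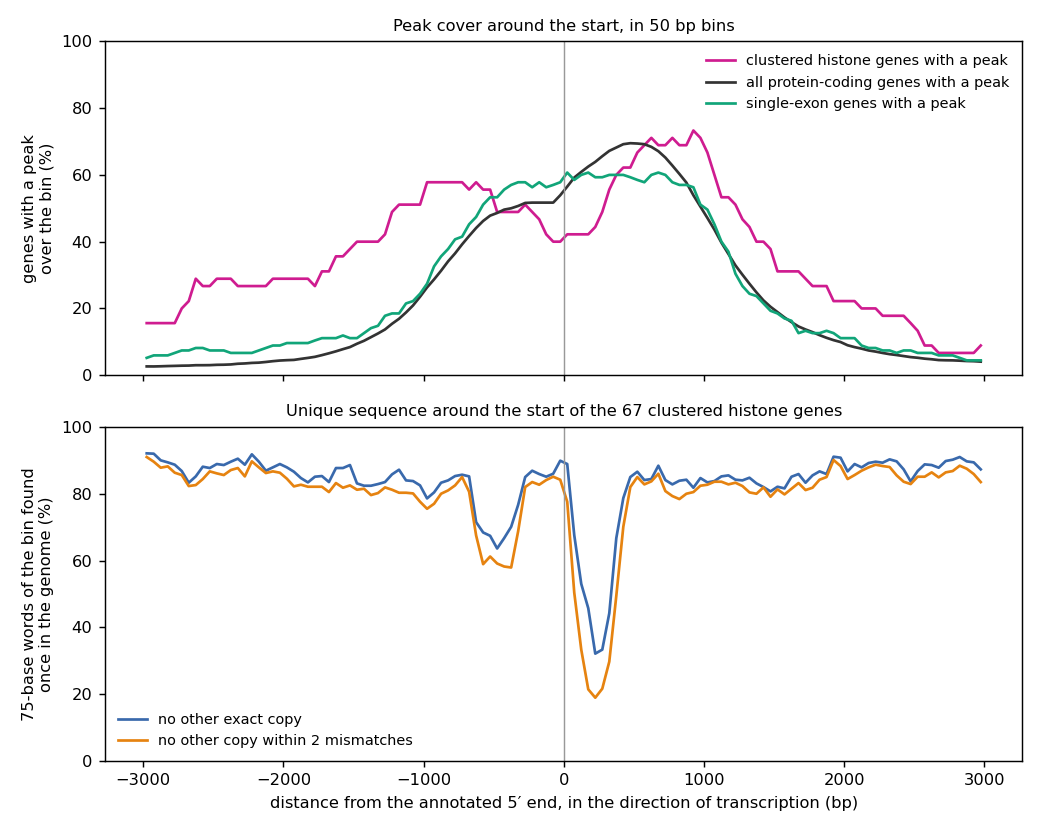
Top: share of genes with a peak over each 50 bp bin (y axis, %) by distance from the annotated 5′ end (x axis, bp), for clustered histone genes, all protein-coding genes and single-exon genes outside the clustered ones, each with a peak. Bottom: share of 75-base words found once in the genome, over all 67 histone genes. Peak cover of the histone genes is 42.2% at the start and 73.3% at 900 bp, and unique words fall to 32.1% at 200 bp.

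The 45 genes were served by 29 peaks. Of these, 17 (58.6%) lay within 1 kb of 2 or more clustered histone genes, 11 of them at 2 genes and 6 at 3, while 15.3% of the 7311 peaks near any protein-coding gene lay near 2 or more. The 17 became 8 with a limit of 500 bp, 5 by the midpoint and 4 among genes at least 90% unique. Each of the 17 shared peaks joined genes of at least 2 histone types, and 35 of the 67 genes shared a peak with another member. The rule that a peak may be up to 1 kb from a start allows such sharing where genes are close. Neighbouring peaks of the set were never closer than 1000 bp, and the part of that spacing in the widths, the sharing and the starts in a gap was not tested. In all, 17 of the 29 peaks held no member start, while 9 held at least a whole member gene and 14 members lay wholly inside a peak. These counts have no matching value for other genes here, and the members were short, with a median length of 539 bp. The median width of the 29 peaks was 1224 bp (quartiles 743 to 2308 bp), against 1162 bp for all peaks near a protein-coding gene and 914 bp for all 11106 peaks. Of the 29, 4 (13.8%) were 3 kb or wider, against 8.08% of the peaks near a gene.

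The widest peak, of 5318 bp, was chr13:23759719-23765036 (GRCm38, the assembly behind mm10). It held Hist1h4a, Hist1h3a and Hist1h1a whole, so genes of H4, H3 and H1. The next, chr13:21714905-21718897 of 3993 bp, held Hist1h2bl, Hist1h2ai and Hist1h3h whole. It was followed by chr13:23743050-23746576, of 3527 bp, which held Hist1h3c and ended 158 bp before the start of Hist1h2bb. The fourth, chr3:96218623-96221755 of 3133 bp, held the starts of Hist2h2ab, Hist2h2ac and Hist2h2be, and was also within 1 kb of Bola1, a neighbour that encodes no histone. The fifth, of 2523 bp, was chr13:23554239-23556761 at Hist1h1d.

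The other peaks near 3 members covered fewer of their starts. The peak chr13:22040568-22042668 of 2101 bp held Hist1h4i whole and lay 276 bp after the start of Hist1h2ag and 546 bp before that of Hist1h2bj. The peak chr13:23575123-23577535 of 2413 bp held Hist1h3d whole and lay 742 bp after the start of Hist1h2ad and within 1 kb of Hist1h2bf. The peak chr13:23571743-23573312 of 1570 bp lay between Hist1h2bg, 347 bp from its start, and Hist1h2bf, 884 bp from its start, and held no start. Narrow peaks stood apart from starts: the 3 narrowest were 307 bp at chr13:23621358-23621664 near Hist1h2be and Hist1h1e, 505 bp at chr13:23570208-23570712 near Hist1h2ae and Hist1h2bg, and 571 bp at chr13:21722585-21723155 near Hist1h2bm.

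The H1 genes encode the linker histone that binds where DNA enters and leaves the nucleosome. Hist1h1a and Hist1h1b had starts inside peaks of 5318 bp and 2035 bp, the latter at chr13:21778913-21780947. Hist1h1e had only the 307 bp peak, 894 bp after its start and past its coding sequence. Hist1h1d was annotated to start 1828 bp before its first coding base: from that start its nearest peak was 897 bp away, the largest distance among genes counted as having one, but the first coding base lay inside the 2523 bp peak. The nearest peak was 4242 bp from Hist1h1c and 10094 bp from Hist1h1t, a testis form. The words within 1 kb of the 6 H1 genes were between 94.6% and 100% unique.

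A distant annotated start also affected Hist1h2be, whose gene model was 37455 bp long. The 307 bp peak counted for it lay 234 bp before that start, whereas its first coding base, 35168 bp away, lay inside a peak of 2754 bp at chr13:23584538-23587291. Measured from the first coding base, as an alternative added after the data had been seen, 45 of 67 genes had a peak within 1 kb, as from the starts, and 20 had the base inside a peak. For 11 genes the annotated start was itself the first coding base, so their 5′ untranslated region is absent from the annotation.

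In 13 cases the starts of 2 members pointed away from each other within 1 kb, 12 as H2A with H2B and 1 as Hist1h2bh with Hist1h3f. Both genes lay near the same peak in 9 of the 13 pairs (69.2%, 42.4 to 87.3%), against 76.8% of the 755 divergent pairs of protein-coding genes. With a limit of 500 bp it was 3 of 13 (23.1%), and by the midpoint of the peak 4 of 13 (30.8%). Of the 26 members in such pairs 18 had a peak (69.2%, 50.0 to 83.5%), and of the 41 others 27 (65.9%, 50.5 to 78.4%). The spacers between the starts were 175 to 659 bp long, with a median of 267 bp. Only 3 of the 9 sharing pairs had a peak base in the spacer, Hist1h2bl with Hist1h2ai, Hist1h2bh with Hist1h3f and Hist2h2ac with Hist2h2be, and in those the spacer was covered whole. Among the 580 sharing pairs of all genes, 80.3% had a peak base between the starts. The spacers of the 6 sharing pairs without one were 100% unique in 75-base words.

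To show what these spacers hold, 5 are printed on the + strand of GRCm38 with 3 motifs in capitals, searched on both strands: TATAAA (the core promoter element), CCAAT (bound by NF-Y) and ATTTGCAT (the octamer bound by POU factors, known from H2B promoters). The first 2 were covered by a peak whole, the next was flanked by peaks on either side, and the last 2 had no peak near either gene.
Hist1h2bl/Hist1h2ai, chr13:21716144-21716421: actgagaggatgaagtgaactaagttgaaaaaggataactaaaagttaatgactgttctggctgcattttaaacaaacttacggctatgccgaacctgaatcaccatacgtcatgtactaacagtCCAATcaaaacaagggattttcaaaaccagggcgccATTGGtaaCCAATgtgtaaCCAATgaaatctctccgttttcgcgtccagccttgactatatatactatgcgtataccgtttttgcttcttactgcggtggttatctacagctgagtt
Hist2h2ac/Hist2h2be, chr3:96220881-96221118: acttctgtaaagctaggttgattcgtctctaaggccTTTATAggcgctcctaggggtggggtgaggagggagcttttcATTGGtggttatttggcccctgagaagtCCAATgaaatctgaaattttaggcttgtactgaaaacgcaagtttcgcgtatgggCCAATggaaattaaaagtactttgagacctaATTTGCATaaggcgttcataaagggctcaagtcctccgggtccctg
Hist1h2ae/Hist1h2bg, chr13:23571221-23571395: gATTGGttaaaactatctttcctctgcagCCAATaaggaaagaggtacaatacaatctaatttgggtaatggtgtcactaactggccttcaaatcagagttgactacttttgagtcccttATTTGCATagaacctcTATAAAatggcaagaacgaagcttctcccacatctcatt
Hist1h2ak/Hist1h2bn, chr13:21753828-21754122: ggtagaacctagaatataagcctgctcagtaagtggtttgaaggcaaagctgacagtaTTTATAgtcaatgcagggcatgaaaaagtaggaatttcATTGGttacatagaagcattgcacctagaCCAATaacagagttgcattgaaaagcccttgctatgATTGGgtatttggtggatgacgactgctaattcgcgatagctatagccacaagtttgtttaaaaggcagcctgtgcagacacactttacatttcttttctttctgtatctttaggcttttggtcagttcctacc
Hist1h2ap/Hist1h2br, chr13:21833508-21833742: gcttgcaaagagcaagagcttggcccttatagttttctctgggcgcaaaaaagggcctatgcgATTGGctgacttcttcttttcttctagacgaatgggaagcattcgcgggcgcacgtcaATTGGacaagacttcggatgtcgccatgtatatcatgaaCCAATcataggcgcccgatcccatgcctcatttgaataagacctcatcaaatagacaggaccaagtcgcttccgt

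CCAAT occurred in all 13 spacers, 2 to 5 times in each and 44 times in all, TATAAA in 8 and ATTTGCAT in 5, and no 2 matches overlapped. The spacer of Hist1h2bl/Hist1h2ai held 4 CCAAT and neither other motif, and that of Hist1h2ak/Hist1h2bn, with no peak, 3 CCAAT and 1 TATAAA. All 3 motifs were present in 5 spacers, among them that of Hist1h2ae/Hist1h2bg, which no peak covered, and in that of Hist2h2ac/Hist2h2be, which a peak covered whole. In the window from 250 bp before to 50 bp after the 5′ end, CCAAT was found in 56 of 67 members against 39.0% of all promoters, in 18 of 18 H2A, 18 of 18 H2B, 11 of 12 H3, 5 of 6 H1 and 4 of 13 H4 genes. TATAAA was found in 37 of 67 members against 12.6% of all promoters, and ATTTGCAT in 15 of 67 against 1.57%, in 7 H2A and 8 H2B genes and no other type. Genes with a peak held TATAAA in 29 of 45 cases (64.4%, 49.8 to 76.8%) and those without in 8 of 22 (36.4%, 19.7 to 57.0%), with overlapping intervals. On the gene strand from 50 to 11 bp before the start it was found in 9 of 45 and 1 of 22. ATTTGCAT was found in 12 of 45 and 3 of 22. Members of a divergent pair have overlapping windows and count the same match more than once.

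The 3′ stem-loop was found in most members, with or without a peak. A perfect stem of 6 base pairs beginning with GG, with a loop of 4 bases beginning with TT, was found within 100 bases of the stop codon in 60 of 67 members, against 0.319% of all protein-coding genes, 10 others among them, H2afx included. It was found in 40 of 45 members with a peak and 20 of 22 without. The 3 most frequent forms are printed with the loop in capitals, as they set H4 apart from the other types.
in 38 members, none of them H4: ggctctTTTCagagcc
in 9 members, none of them H4: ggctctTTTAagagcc
in 8 members, all of them H4: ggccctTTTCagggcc
The first form was found in 27 members with a peak, the second in 7 and the H4 form in 3. All 12 H4 genes with a stem-loop had a stem of another sequence than the H1, H2A, H2B and H3 genes. Stem and loop together came in 3 forms in H4, not all of which differed in the stem.

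The 22 genes without a peak were of several kinds. Lying just outside the limit of 1 kb, Hist2h2aa2 was 1664 bp from the nearest peak, followed by Hist4h4 at 2575 bp and Hist1h4b at 2706 bp. Just inside were Hist1h1d at 897 bp, Hist1h1e at 894 bp and Hist1h2bf at 884 bp. No member lay between 897 and 1664 bp. The nearest peak was over 10 kb away for 11 of the 22.

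In 10 members fewer than 50% of the 75-base words within 1 kb of the 5′ end were unique, 9 of them without a peak (9 of 22, 40.9%, 23.3 to 61.3%) and 1 with (1 of 45, 2.22%, 0.393 to 11.6%). The 6 lowest were Hist1h2bq, Hist1h2ao, Hist1h4m, Hist1h4n, Hist1h2ap and Hist1h2br at the end of the first Hist1 group. Hist1h2bq, Hist1h2ao, Hist1h2ap and Hist1h2br had no unique word, and Hist1h4m and Hist1h4n had 11% and 13.6%. They lay in a pair of stretches in opposite order, of 24.9 kb (chr13:21795986-21820841) and 14.8 kb (chr13:21830706-21845530), in which 93.8% and 96.6% of the words were not unique and which no peak overlapped. All 235 bases of the spacer of Hist1h2ap and Hist1h2br recur on the other strand in that of Hist1h2bq and Hist1h2ao. The nearest peaks to the 6 genes were 21388 to 23370 bp away.

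In the Hist2 cluster, Hist2h3c2 with Hist2h2aa2 and Hist2h3c1 with Hist2h2aa1 were annotated in mirrored order, and had 25.3%, 46.0%, 24.3% and 48.8% unique words. Of these only Hist2h3c2 had a peak, chr3:96237003-96238612, which lay 515 bp after its start and of whose own words 95% were unique. Peaks were also found over sequence that was unique only in part: 78.9% of the words of the peak at Hist1h2bl, Hist1h2ai and Hist1h3h were unique, and the peak at Hist2h3c2 reached into a stretch (chr3:96238462-96240543) with 88.6% of its words not unique. The alignment kept only reads with a single place, and the part of this in the absence of peaks was not tested.

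Unique sequence did not go with a peak in every gene. Hist2h4, Hist4h4 and Hist1h1t were 100% unique and had none, and Hist1h1c, Hist1h2ba, Hist1h2aa, Hist1h4c, Hist1h4b and Hist1h4h were 91.2% to 94.9% unique and had none. The remaining 4 were Hist1h2ak and Hist1h2bn at 83.4% each, Hist2h3b at 83.1% and Hist2h2bb at 66.2%. Between all genes with and without a peak the median share of unique words was 85.3% (quartiles 73.5 to 93.8%) and 83.3% (16.3 to 94.3%). For these exact 75-base words the medians were close and the lower quartiles far apart. The medians lay further apart for words of 50 bases (81.7% and 73.8%) and of 36 bases (79.5% and 69.4%). Allowing 2 mismatches in a copy of 75 bases, they were 75% and 65.3%. The quartile ranges overlapped under each of these settings. Among all protein-coding genes 9.94% had fewer than 90% unique 75-base words, and among the clustered histone genes 62.7%. The CpG ratio had medians of 0.881 (0.825 to 0.927) with a peak and 0.844 (0.765 to 0.928) without, and in a narrower window of 250 bp each way the order turned, to 0.914 with and 0.940 without.

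**Figure D5:**
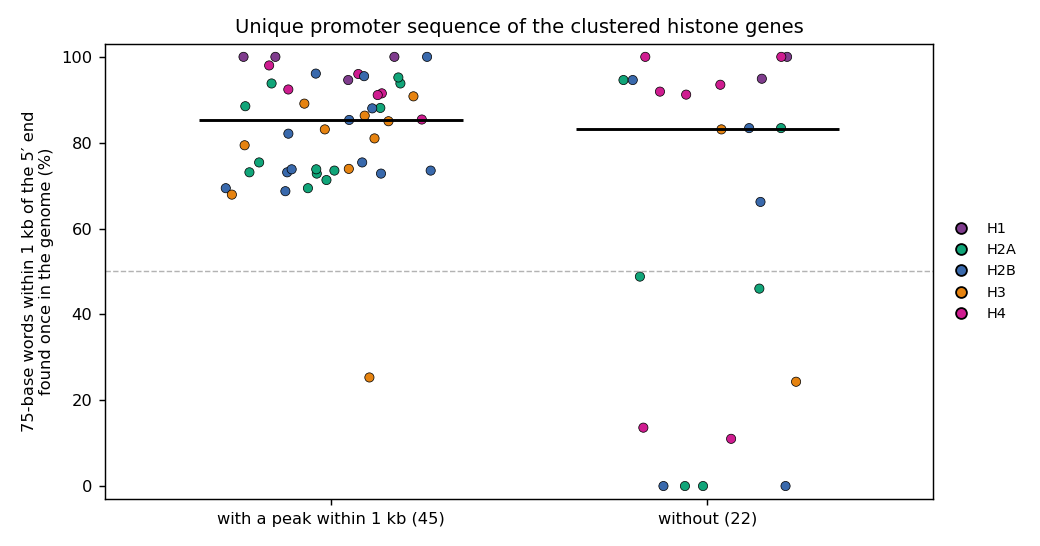
Share of 75-base words within 1 kb of the 5′ end found once in the genome (y axis, %), for each clustered histone gene with (45) and without (22) a peak within 1 kb, coloured by histone type; horizontal bars are medians and the dashed line marks 50%. Below the line lie 9 genes without a peak and 1 with.

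Among the single Hist3 and Hist4 genes, Hist3h2a had its start inside a peak of 2471 bp at chr11:58953670-58956140, which was also within 1 kb of Trim17, a ubiquitin ligase gene. Hist3h2ba had a peak of 677 bp, chr11:58949335-58950011, 415 bp after its start. The nearest peak to Hist4h4, chr6:136806990-136809924 of 2935 bp, held the start of H2afj, the neighbouring gene for an H2A variant. The only other protein-coding gene inside the third Hist1 group, Hfe, a regulator of iron uptake, had no peak.

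Genes that work with the clustered ones were read from lists, to be read against the 35.7% of all and 60.4% of CpG-rich protein-coding genes with a peak. Of 14 histone genes outside the clusters, listed as those expressed independently of replication, 9 had a peak: H3f3a, H3f3b, H2afz, H2afv, H2afx, H2afj, H2afy, Cenpa and H1f0. H2afx was on this list although it has the 3′ stem-loop of replication-dependent genes, so the name of the list does not hold for it without limit. The peaks of H2afx (4002 bp), H3f3a (2960 bp) and H2afz (2543 bp) held the start. H1fx, H1foo, H1fnt, Hils1 and H2afy2 had none, and H1foo, H1fnt and Hils1 are known as germ cell forms. Of 9 genes whose products act in histone gene transcription or mRNA processing, 8 had a peak, among them Npat (3198 bp) and Slbp (3053 bp). Casp8ap2, Hinfp, Pou2f1, Zfp473, Lsm10 and Cramp1l were the others, and Lsm11, part of the U7 particle that cuts histone mRNAs, had none, the nearest being 10066 bp away.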

How the data were processed

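Undifferentiated V6.5 mESCs carrying a scramble or a Sirt6 shRNA were used for H3K56ac ChIP-seq, with 2 H3K56ac libraries and 1 input library per shRNA (6 in all), grouped by sample title. The authors trimmed reads with Trim Galore, aligned them to mm10 with bowtie keeping reads with a single reportable place, used Picard against duplicates and MACS2 to call peaks, removed blacklisted regions and merged the peaks. The submitters' processing notes also name FastQC, SAMtools and deepTools. The deposited file gives the start and end of each merged peak. Its score column, as deposited, is 0 in every row and was not used. Neighbouring peaks were never closer than 1000 bp, whereas the paper describes merging peaks that overlap. Peaks carry no read counts, so depth per library enters no value here.

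The members and the lists were chosen with earlier results of these data known. TSS of all protein-coding transcripts came from GENCODE M21 (GRCm38), and a gene counted as having a peak where the peak reached to 1 kb or less from any TSS. Words of 75 bases were counted on both strands of the 65 sequences of the primary assembly, and copies within 2 mismatches were searched likewise; both searches and the overlap functions were tested on simulated data. CpG ratios are observed over expected CpG from 500 bp before to 500 bp after the 5′ end. Every member is accounted for; positions are given for peaks near 3 members, the 5 widest and 3 narrowest peaks, all H1, Hist3 and Hist4 genes, and those nearest the limit. Intervals are 95% Wilson intervals. No hypothesis test was run. Python 3.11.15, numpy 2.4.6, pandas 2.3.3 and numba 0.67.0 were used.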

Additional observations from a re-analysis of the deposited data

How the results depend on the processing

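No paired analysis was possible because no peak of the single deposited set has a value for any library, and for the same reason no library could be left out. Of 124 alternative values for 21 results, 104 stayed near the reported value and 20 did not: a share had to stay inside its interval, a median inside its quartiles and a count within 1.5 times. Joining members up to 300 kb apart gave 5 groups in place of 7. With a limit of 500 bp, 50.7% of the genes had a peak (Hist1 53.7%), 8 peaks were shared and 23.1% of the divergent pairs shared one. With the midpoint of the peak in place of any base, the values were 47.8% of all, 50.0% of Hist1, 16.7% of H1 and 38.9% of H2A genes, 5 shared peaks and 30.8% of pairs. With peaks at least as wide as the median of all peaks, 52.2% of the genes and 55.6% of Hist1 had one. With a limit of 3 kb Hist4h4 had a peak (100% of 1 gene). Over genes at least 90% unique, the share was 75% for Hist2 (3 of 4), above the 61.1% for Hist1 (11 of 18), and 100% for H3 (1 of 1), 4 peaks were shared and 62.5% of the starts at a peak were inside it. TATAAA on the gene strand 11 to 50 bp before the start was found in 20% of genes with a peak and 4.55% of those without. With 250 bp on either side the median CpG ratio of genes without a peak was 0.940, above the 0.914 of those with one. The causes were not tested. The overall share stayed inside its interval at 3 kb, with 200 bp of overlap, with other transcript sets and from the first coding base (62.7% to 71.6%). The 2-mismatch words, the first coding base and the alternatives for starts inside a peak were added after the data had been seen.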
